A study of Mus musculus with 6 samples.

Results

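The genes described here are 37 genes of sterol and fatty acid synthesis that sterol regulatory element-binding proteins (SREBPs) control, or that control the SREBPs. Each was found in 1 row among the 15824 genes of the expression table. They were chosen by symbol from a list made with earlier results of these data known. Of these, 20 belong to the sterol branch, which SREBP2 (gene Srebf2) mainly drives, 12 belong to the fatty acid branch, which SREBP1 (gene Srebf1) mainly drives, and 5 are regulators. RNA was sequenced from cells that the labels call alveolar macrophages, the resident phagocytes of the lung airspaces. The cells were obtained by cell sorting from lungs of mice that were 8 weeks old. The 6 libraries were 3 wild-type libraries (WT) and 3 libraries from mice with a knockout of Men1 (KO), the gene for menin, a scaffold of histone methyltransferase complexes. The driver of the deletion, the strain and the number of mice per library are not given in the labels, so p-values reflect the spread between these libraries alone, and that spread may be technical.

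SREBPs are made as precursors held in the membrane of the endoplasmic reticulum by SCAP, the sterol sensor, and by the INSIG proteins, which retain SCAP when sterols are plentiful. When sterols fall, SCAP carries the precursor to the Golgi, where proteases release the part that enters the nucleus and activates genes with a sterol regulatory element, usually together with the CCAAT-binding factor NF-Y and with Sp1. In macrophages the pathway supplies membrane lipid and is set against cholesterol taken up from outside, and in the airspaces these cells also clear surfactant lipid. SREBP activity is controlled largely by this release, which transcript levels do not measure.

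Total counts per library lay between 19955232 and 20151985. Men1 counts were 639, 594 and 603 in WT and 150, 149 and 165 in KO. The log2 fold change was -1.93 (SE 0.0684) with an adjusted p of 7.24e-24 in the quasi-likelihood test of edgeR, adjusted by Benjamini-Hochberg over 11817 tested genes, which is the test meant throughout. Over all tested genes the median log2 fold change was 0.0014, and 34.4% were higher and 34.9% lower in KO. The defining alveolar macrophage marker Siglecf was at 2.06 ± 0.381 CPM (per-library scaled counts; ± is the SD, n = 3) in WT and 1.34 ± 0.154 CPM in KO, and of 10 tested alveolar macrophage markers 4 were higher and 5 lower. Fabp1, Plet1, Ear1, Ear2 and Ear6, also markers of alveolar macrophages, were at or near 0 in all libraries. Of the 18 listed markers, 15 were in the expression table. These low markers do not bear out the cell type that the labels name, and the identity of the cells was not tested. Other markers of the same list were more abundant and moved in both directions. Marco rose from a WT mean of 172 to a KO mean of 1137 CPM (log2 fold change 2.72). Mrc1 and Chil3 also rose, from 95.4 to 131 CPM and from 6.94 to 13.9 CPM. Lpl fell from 1982 to 1776 CPM, and Atp6v0d2 from 119 to 60.8 CPM. A set of 8 general macrophage genes together held 9969 to 10103 CPM in WT and 15025 to 15162 CPM in KO. Summed fibroblast markers (9 of 10 tested, all 9 lower) ran from 83.4 to 85.4 CPM in WT and from 10.8 to 11.6 CPM in KO. Proliferation markers (10 of 10 lower) ran from 898 to 906 CPM in WT and from 371 to 379 CPM in KO. Alveolar type 2 epithelial markers (6 of 11 in the table; Epcam at 0.114 and Lamp3 at 0.0164 CPM in WT) summed to 233 to 243 CPM in WT and 294 to 295 CPM in KO, mostly Abca3, Etv5 and Napsa. Endothelial and lymphocyte markers summed to at most 28.6 and 11.3 CPM in any library. Of 4 tested neutrophil markers 3 were higher and 1 lower in KO (median log2 fold change 1.29), with S100a8 at 37.9 and 71.0 CPM and Csf3r at 19.7 and 63.3 CPM in WT and KO, while their sum was lower (850 to 869 CPM in WT, 684 to 704 CPM in KO) through Mmp8, at 799.96 and 558 CPM. The 4 Y-linked genes summed to 162 to 169 CPM in WT and 0 to 0.102 CPM in KO. The groups thus differed in Y-linked RNA as male and female samples would. Any effect of sex on the genes below cannot be told apart from that of the knockout. The part of these differences in the results below was not tested, and in bulk RNA fewer cells of a type and less RNA per cell cannot be told apart.

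Promoter sequences were available for 30 of the 37 genes (16 sterol, 9 fatty acid and 5 regulator genes), from RefSeq on build GRCm38.p6. The other 7 had no listed promoter, so the motif shares below do not cover them. They were Fdps, Fdft1, Sqle and Stard4 of the sterol branch and Scd1, Scd2 and Fads1 of the fatty acid branch. The 250 bases before each transcription start were searched on both strands for TCACNCCAC, a form of the sterol regulatory element, for its shorter core CACNCCAC, which lies within it, for the NF-Y box CCAAT, for the Sp1 box GGGCGG and for the E-box CACGTG. Of the 30 genes, Hmgcs1 was the one in which TCACNCCAC was found, and CACNCCAC was found in Hmgcs1, Acat2 and Insig1, which is 10% of the 30 genes against 6.51% of the 9537 tested genes with a listed promoter. CCAAT was found in 15 of 16 sterol genes (93.8%), 5 of 9 fatty acid genes (55.6%) and 4 of 5 regulators, against 40.96% of tested genes. GGGCGG was found in 14 of 16 sterol genes (87.5%) and 5 of 9 fatty acid genes, against 63.5% of tested genes, and CACGTG in 6 of the 30 genes (20%), against 10.1%. Genes with several listed starts, 7 of the 30, were counted once if any start held the motif. A match is a description of these letters and not a measured site.

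The windows of 6 genes are printed in lower case, 5′ to 3′ on the gene's strand and ending at the base before the start, with matches to the sterol element letters and to the CCAAT box in capitals (a box on the other strand reads ATTGG). Hmgcs1 (chr13:119690101-119690350, + strand), Acat2 (chr17:12960726-12960975, - strand) and Insig1 (chr5:28071162-28071411, + strand) are shown because they hold the sterol element letters. Srebf2 (chr15:82147019-82147268, + strand), Tm7sf2 (chr19:6067851-6068100, - strand) and Acss2 (chr2:155517793-155518042, + strand) were picked with their values known, as the regulator with the highest fold change, the sterol gene with the highest, and a fatty acid gene that rose.
Hmgcs1: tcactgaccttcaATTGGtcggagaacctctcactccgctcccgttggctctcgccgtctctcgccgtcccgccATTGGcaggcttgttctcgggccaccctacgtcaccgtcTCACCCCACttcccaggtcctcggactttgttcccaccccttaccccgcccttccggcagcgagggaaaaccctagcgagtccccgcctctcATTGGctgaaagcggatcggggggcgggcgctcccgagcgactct
Acat2: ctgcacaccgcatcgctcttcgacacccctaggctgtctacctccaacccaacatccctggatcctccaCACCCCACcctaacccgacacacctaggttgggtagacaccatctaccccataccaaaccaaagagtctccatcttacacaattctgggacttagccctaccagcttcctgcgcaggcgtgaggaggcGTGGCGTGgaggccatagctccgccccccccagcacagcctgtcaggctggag
Insig1: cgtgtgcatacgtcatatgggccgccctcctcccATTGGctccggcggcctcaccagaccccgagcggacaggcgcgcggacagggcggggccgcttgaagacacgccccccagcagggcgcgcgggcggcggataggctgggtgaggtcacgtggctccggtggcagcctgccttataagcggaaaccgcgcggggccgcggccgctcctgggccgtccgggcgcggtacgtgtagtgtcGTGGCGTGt
Srebf2: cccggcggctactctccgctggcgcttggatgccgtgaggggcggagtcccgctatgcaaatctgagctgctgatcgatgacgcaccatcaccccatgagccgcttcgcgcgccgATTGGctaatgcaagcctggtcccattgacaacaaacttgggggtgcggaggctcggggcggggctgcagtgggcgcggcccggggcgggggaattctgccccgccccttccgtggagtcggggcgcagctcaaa
Tm7sf2: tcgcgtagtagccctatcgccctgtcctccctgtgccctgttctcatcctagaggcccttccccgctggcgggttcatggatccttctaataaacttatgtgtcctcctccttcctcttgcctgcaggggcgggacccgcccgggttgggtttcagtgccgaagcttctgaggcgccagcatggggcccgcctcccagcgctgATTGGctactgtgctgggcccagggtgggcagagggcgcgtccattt
Acss2: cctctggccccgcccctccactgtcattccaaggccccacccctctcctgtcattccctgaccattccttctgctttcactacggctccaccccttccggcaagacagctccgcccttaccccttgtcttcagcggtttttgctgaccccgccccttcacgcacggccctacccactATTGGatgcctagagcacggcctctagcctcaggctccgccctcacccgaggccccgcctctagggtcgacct

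In the Hmgcs1 window the sterol element ended 129 bases before the start and stood between CCAAT boxes that ended 172 and 41 bases before it. The Insig1 and Acat2 windows held the shorter core, in Insig1 2 bases before the start. Acat2 was the sterol gene with a listed promoter and no CCAAT. In Tm7sf2 and Acss2 a single CCAAT box ended 43 and 69 bases before the start. The Srebf2 window held a CCAAT box 131 bases before the start and 4 GGGCGG boxes.

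Among the regulators, both SREBP genes rose in KO, Insig2 fell, and Scap and Insig1 did not pass the test. Srebf2 (gene ID 20788, chr15:82147269-82205379) stood at 143, 144 and 146 CPM in WT and at 201, 207 and 203 CPM in KO. Every KO library was above every WT library, and the log2 fold change was 0.50 (SE 0.0253, adjusted p = 3.36e-19). Srebf1 (gene ID 20787, chr11:60199084-60224186) stood at 52.6, 52.1 and 55.0 CPM in WT and at 64.2, 63.5 and 70.9 CPM in KO. Its groups did not overlap either, at log2 fold change 0.32 (SE 0.0409, adjusted p = 1.92e-08), and the third KO library was the highest. Srebf1 overlaps Rai1 by 114 bases, and whether counting used strand is not given.

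Insig2, which encodes the INSIG form that is less dependent on SREBP for its own expression, stood at 32.5, 30.9 and 32.2 CPM in WT and at 24.4, 26.2 and 25.8 CPM in KO. All KO libraries were below all WT libraries (log2 fold change -0.32, SE 0.0504, adjusted p = 6.81e-07). Insig1, itself a classical SREBP target, stood at 48.4, 46.8 and 47.0 CPM in WT and at 47.8, 49.5 and 52.1 CPM in KO, and the groups overlapped (log2 fold change 0.07, SE 0.0411, adjusted p = 0.123). Without KO replicate 1 its log2 fold change was 0.10 with an adjusted p of 0.0433. Scap stood at 45.2 ± 0.727 CPM in WT and at 47.5 ± 1.76 CPM in KO (adjusted p = 0.134). The TPM (transcript shares scaled to gene length) ratio of Insig1 to Insig2 was 1.44 ± 0.0201 in WT and 1.92 ± 0.0626 in KO, and that of Srebf2 to Srebf1 was 2.45 ± 0.0467 in WT and 2.77 ± 0.183 in KO. On counts, the Srebf2 to Srebf1 ratio gave a two-sided exact permutation p of 0.1, the smallest that 3 against 3 libraries allow.

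**Figure D1:**
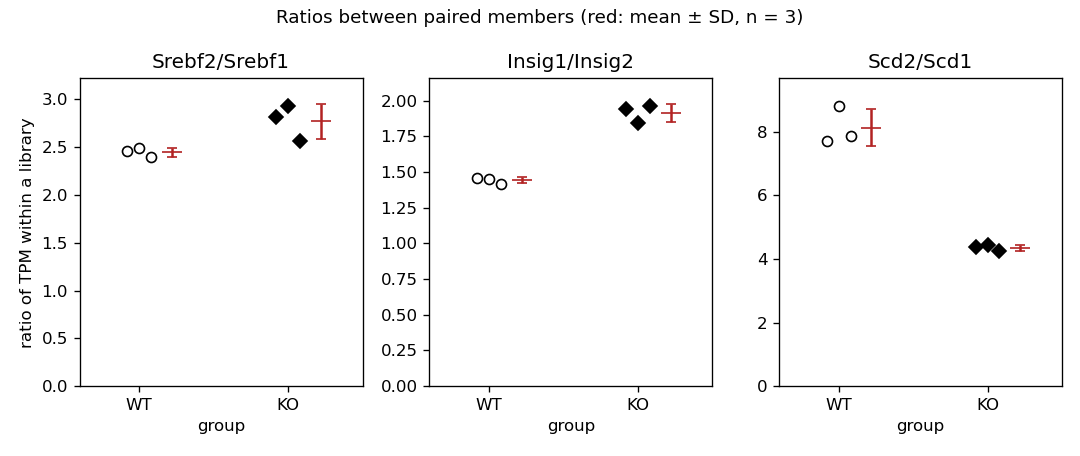
Ratio of TPM values within each library for Srebf2 to Srebf1, Insig1 to Insig2 and Scd2 to Scd1 (open circles, 3 WT libraries; filled diamonds, 3 KO libraries; red, mean ± SD). Srebf2 to Srebf1 ran from 2.40 to 2.49 in WT and from 2.57 to 2.93 in KO, and Scd2 to Scd1 from 7.71 to 8.80 in WT and from 4.24 to 4.44 in KO.

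In the sterol branch 15 of 20 genes rose in KO (75%, against 34.4% of all tested genes), 2 fell (10%, against 34.9%) and 3 did not pass the test. The median log2 fold change of the 20 genes was 0.24. The changes were small: Tm7sf2 was the sterol gene that reached 1.5-fold, a size that 8.40% of all tested genes reached upward. Under a biological coefficient of variation set to 0.1, which is wider than the estimated 0.0166, 9 sterol genes were called higher and 1 lower, against 18.4% and 18.8% of all tested genes. On log2(TPM + 1), where the median of all tested genes was -0.12, limma called 10 sterol genes higher and 3 lower, against 20.0% and 48.3% of all tested genes. Relative to the median of all tested genes, the sterol median was 0.24 above it in the count fit and 0.22 above it on the TPM scale.

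The early part of the branch, the mevalonate pathway, makes isoprenoid units from acetyl-CoA. Of its 8 genes 5 rose and 2 fell, against 34.4% and 34.9% of all tested genes, and Idi1 did not pass. In this pathway 4 genes, most of them neighbours in the reaction order, rose by close to the same amount: Mvk, which encodes mevalonate kinase, Pmvk, the phosphomevalonate kinase, Mvd, the decarboxylase, and Fdps, which makes farnesyl diphosphate. Fdps stood at 109, 104 and 115 CPM in WT and at 161, 150.4 and 162 CPM in KO (log2 fold change 0.53, SE 0.0320, adjusted p = 5.83e-17). Mvd stood at 27.4, 25.99 and 24.5 CPM in WT and at 37.0, 38.5 and 38.9 CPM in KO (log2 fold change 0.55, SE 0.0494, adjusted p = 2.87e-12). Mvk and Pmvk rose by 0.53 and 0.54 on the log2 scale, from 15.99 ± 0.918 to 23.1 ± 0.520 CPM and from 16.1 ± 0.850 to 23.5 ± 0.943 CPM. In all 4 genes the groups lay apart.

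The genes around these moved less or the other way. Hmgcs1, the synthase that commits carbon to the pathway and whose window holds the sterol element printed above, stood at 104, 100.1 and 107 CPM in WT and at 121, 117 and 121 CPM in KO. The log2 fold change of 0.21 (adjusted p = 2.16e-07) did not pass on log2(TPM + 1) (0.06, limma adjusted p = 0.147). Idi1, the isopentenyl diphosphate isomerase, stood at 72.9 ± 0.912 CPM in WT and at 74.2 ± 2.24 CPM in KO (log2 fold change 0.02, adjusted p = 0.533), and on log2(TPM + 1) it was lower in KO (-0.11, limma adjusted p = 0.0194). Acat2, the cytosolic thiolase at the entry to the pathway, fell by 0.19 on the log2 scale, from 26.7 ± 0.793 to 23.4 ± 1.37 CPM (adjusted p = 0.00243).

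Ggps1 encodes the synthase of geranylgeranyl diphosphate, the lipid used for protein prenylation, and so leads away from sterols. It stood at 22.4, 23.3 and 22.1 CPM in WT and at 18.2, 17.4 and 16.7 CPM in KO. All KO libraries lay below all WT libraries (log2 fold change -0.38, SE 0.0596, adjusted p = 9.41e-07). Fdps and Ggps1, which act on neighbouring prenyl diphosphates, therefore differed in sign in every KO library relative to the WT means.

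From the squalene synthase gene Fdft1 onward, 9 of 11 genes rose and none fell, against 34.4% and 34.9% of all tested genes. Lss and Hsd17b7 did not pass. Tm7sf2, a sterol reductase that acts on the double bond left by the lanosterol demethylase, stood at 8.44, 8.60 and 8.00 CPM in WT and at 15.8, 15.3 and 14.8 CPM in KO. Its log2 fold change of 0.87 (SE 0.0775, adjusted p = 2.52e-12), which is 1.83-fold, was the highest of the sterol genes. Dhcr7, the reductase of a closing step to cholesterol, rose from 23.7, 24.8 and 27.7 CPM in WT to 34.7, 34.2 and 35.2 CPM in KO (log2 fold change 0.45, SE 0.0525, adjusted p = 2.24e-09). Nsdhl, the X-linked sterol dehydrogenase, rose by 0.42 on the log2 scale from 29.6 ± 1.47 to 39.5 ± 2.56 CPM. Cyp51, the lanosterol demethylase, and Msmo1, the methyl sterol monooxygenase, rose by 0.33 and 0.27, to 120.2 ± 1.92 and 184 ± 2.31 CPM. The groups lay apart in all 5 genes.

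Fdft1, the squalene synthase that commits farnesyl diphosphate to sterols, stood at 44.7, 44.2 and 44.5 CPM in WT and at 61.4, 55.8 and 60.0 CPM in KO (log2 fold change 0.41, SE 0.0408, adjusted p = 4.45e-11). Its span overlaps that of Ctsb by 774 bases, and Ctsb, with a mean of 274825 counts against 1034 for Fdft1, had a log2 fold change of -0.07. The assignment of reads in the overlap is not given. Sqle, the monooxygenase that is a second control point of the pathway, stood at 144, 141 and 136 CPM in WT and at 152, 148 and 146 CPM in KO. This log2 fold change of 0.09 (SE 0.0280, adjusted p = 0.00697) turned to -0.05 on log2(TPM + 1), with a limma adjusted p of 0.241, and leaving out WT replicate 3 gave an adjusted p of 0.0567. Lss, the lanosterol synthase, stood at 39.2 ± 0.300 CPM in WT and at 39.8 ± 1.08 CPM in KO (log2 fold change 0.02, adjusted p = 0.661).

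Hsd17b7, a keto-sterol reductase, had a log2 fold change of 0.11 and an adjusted p of 0.0558, with groups that did not overlap (24.0 to 27.2 CPM in WT, 27.3 to 28.8 CPM in KO). Its adjusted p was 0.0498, 0.0245 and 0.0485 when WT replicate 1, WT replicate 3 or KO replicate 2 was left out, and 0.0432 with the replicate number as a block. Ebp, the X-linked sterol isomerase, and Sc5d, the sterol desaturase, had overlapping groups and log2 fold changes of 0.13 and 0.16 (adjusted p = 0.00781 and 0.00185), which turned to -0.01 and -0.02 on log2(TPM + 1). Ebp did not pass without KO replicate 1 (adjusted p = 0.104), without WT replicate 3 (0.0600) or in DESeq2 (0.0547). Stard4, which carries sterol between membranes, rose by 0.18 on the log2 scale from 48.2 ± 3.21 to 54.4 ± 2.24 CPM (adjusted p = 0.000647), and the difference was 0.03 on log2(TPM + 1), with a limma adjusted p of 0.599. Its groups were apart by a narrow gap, with 51.83 CPM in the highest WT library and 51.86 CPM in the lowest KO library.

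**Figure D2:**
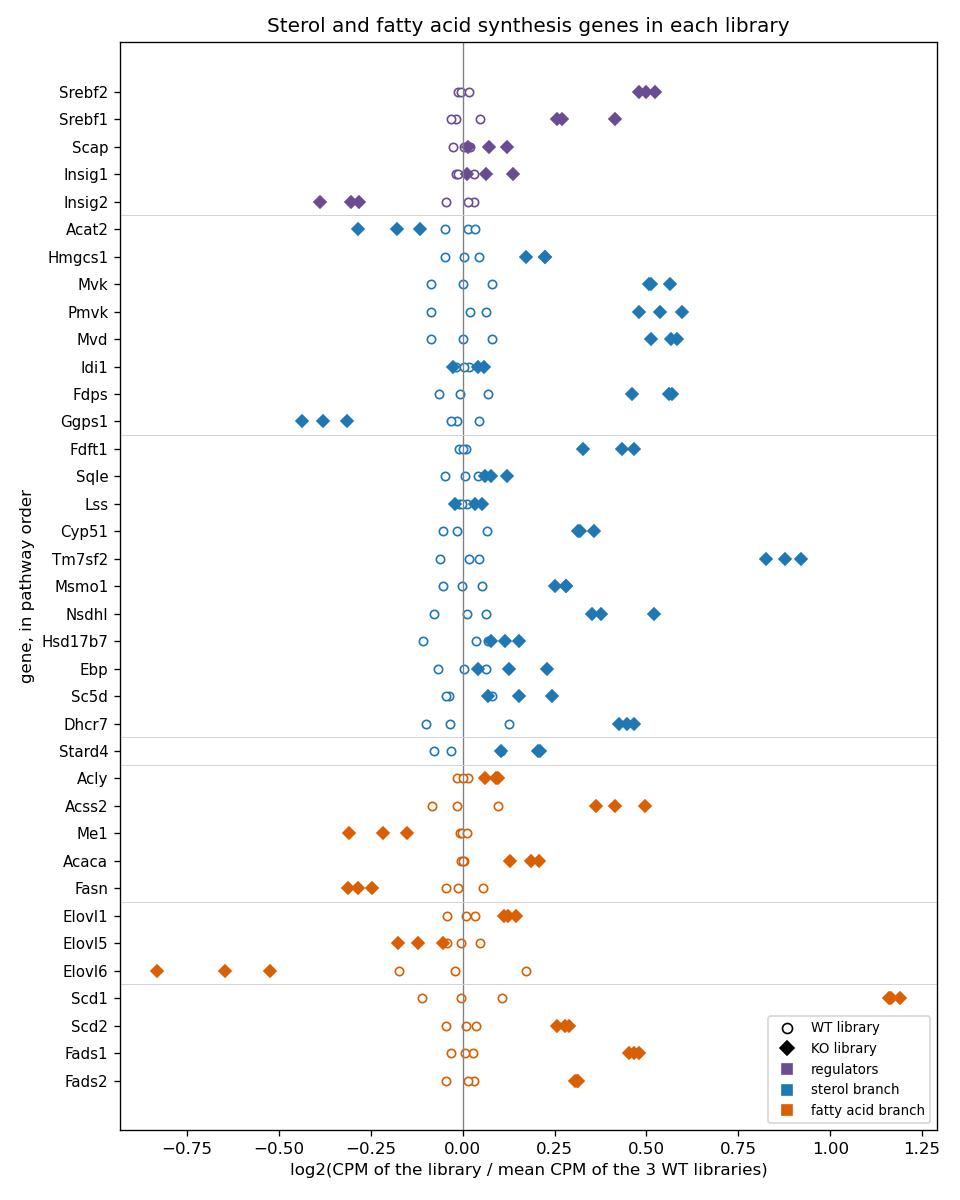
CPM of each library relative to the mean of the 3 WT libraries, on a log2 axis, for the 37 genes in pathway order (open circles, WT libraries; filled diamonds, KO libraries; colours mark regulators, sterol branch and fatty acid branch). With no overlap of the groups, KO libraries lie to the right for 24 genes and to the left for 7 genes. Over all tested genes, 35.4% and 35.8% did so. Scd1 lies farthest to the right and Elovl6 farthest to the left.

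In the fatty acid branch 8 of 12 genes rose (66.7%, against 34.4% of all tested genes) and 4 fell (33.3%, against 34.9%), with a median log2 fold change of 0.15. By kind of reaction, all 4 desaturase genes rose, whereas 2 of 3 elongase genes and 2 of the 5 genes of precursor supply and chain synthesis fell. The summed desaturase genes went from 493 ± 11.3 to 650 ± 2.64 CPM, a ratio of 1.32, while the summed genes of precursor supply and chain synthesis stood at 495 ± 3.15 and 497 ± 4.85 CPM. On log2(TPM + 1) limma called 5 fatty acid genes higher and 4 lower, against 20.0% and 48.3% of all tested genes, and the branch median was 0.0069, which is 0.13 above the median of all tested genes, against 0.15 above it on counts.

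Scd1, which encodes stearoyl-CoA desaturase, the enzyme of monounsaturated fatty acid synthesis, stood at 37.7, 32.5 and 34.9 CPM in WT and at 78.7, 78.3 and 79.9 CPM in KO. It was the member with the highest fold change (log2 1.17, SE 0.0421, adjusted p = 1.07e-23), and of the 37 genes it was the one that passed and reached 2-fold, as 3.26% of all tested genes did upward and 4.94% downward. Scd2, its close paralog, stood at 331, 325 and 313 CPM in WT and at 391, 394 and 385 CPM in KO. It rose by 0.27 on the log2 scale (SE 0.0223, adjusted p = 2.63e-13) and remained the more abundant form. Per length, the Scd2 to Scd1 ratio went from 8.13 ± 0.588 to 4.35 ± 0.0988 TPM per TPM. The assignment of reads that both paralogs share is not given.

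Fads1 and Fads2 encode the front-end desaturases of polyunsaturated fatty acid synthesis and lie side by side. Fads1 stood at 91.4, 90.1 and 87.8 CPM in WT and at 124, 123 and 125 CPM in KO (log2 fold change 0.47, SE 0.0295, adjusted p = 2.40e-16). Fads2 stood at 44.1, 46.5 and 46.0 CPM in WT and at 56.5, 56.6 and 56.3 CPM in KO (log2 fold change 0.31, SE 0.0390, adjusted p = 1.01e-08). Both pairs of groups lay well apart, and the KO libraries were close to each other.

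Fasn, the fatty acid synthase and the best known SREBP1 target, differed in direction from Srebf1. It stood at 121, 119 and 127 CPM in WT and at 100.4, 103 and 98.5 CPM in KO (log2 fold change -0.28, SE 0.0308, adjusted p = 4.70e-10). Elovl6, which elongates palmitate, was the least abundant member at 6.67, 7.42 and 8.48 CPM in WT and at 5.23, 4.80 and 4.23 CPM in KO. Its log2 fold change of -0.66 (SE 0.114, adjusted p = 4.19e-06) was the lowest of the 37 genes and the downward change that reached 1.5-fold, as 9.39% of all tested genes did. Me1, the cytosolic malic enzyme that supplies NADPH, fell by 0.22 on the log2 scale from 46.9 ± 0.323 to 40.2 ± 2.20 CPM. All 3 genes had KO libraries below every WT library.

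Other genes of this branch changed little. Acss2, which makes acetyl-CoA from acetate, was the exception, at 31.6, 29.3 and 27.9 CPM in WT and at 38.1, 39.5 and 41.8 CPM in KO (log2 fold change 0.43, SE 0.0498, adjusted p = 2.09e-09). Acaca, the acetyl-CoA carboxylase of the rate-limiting step, rose by 0.17 on the log2 scale from 47.2 ± 0.152 to 53.3 ± 1.5 CPM, and did not pass in limma on log2(TPM + 1). Acly, the citrate lyase, and Elovl1, the elongase of very long chains, rose by 0.08 and 0.13 (adjusted p = 0.00190 and 2.09e-05) and turned to -0.06 and -0.02 on log2(TPM + 1). Elovl5, the elongase of polyunsaturated chains, fell by 0.12 from 72.0 ± 2.27 to 66.5 ± 2.85 CPM (adjusted p = 0.00619), with an adjusted p of 0.0673 without KO replicate 2 and 0.0529 in DESeq2.

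**Figure D3:**
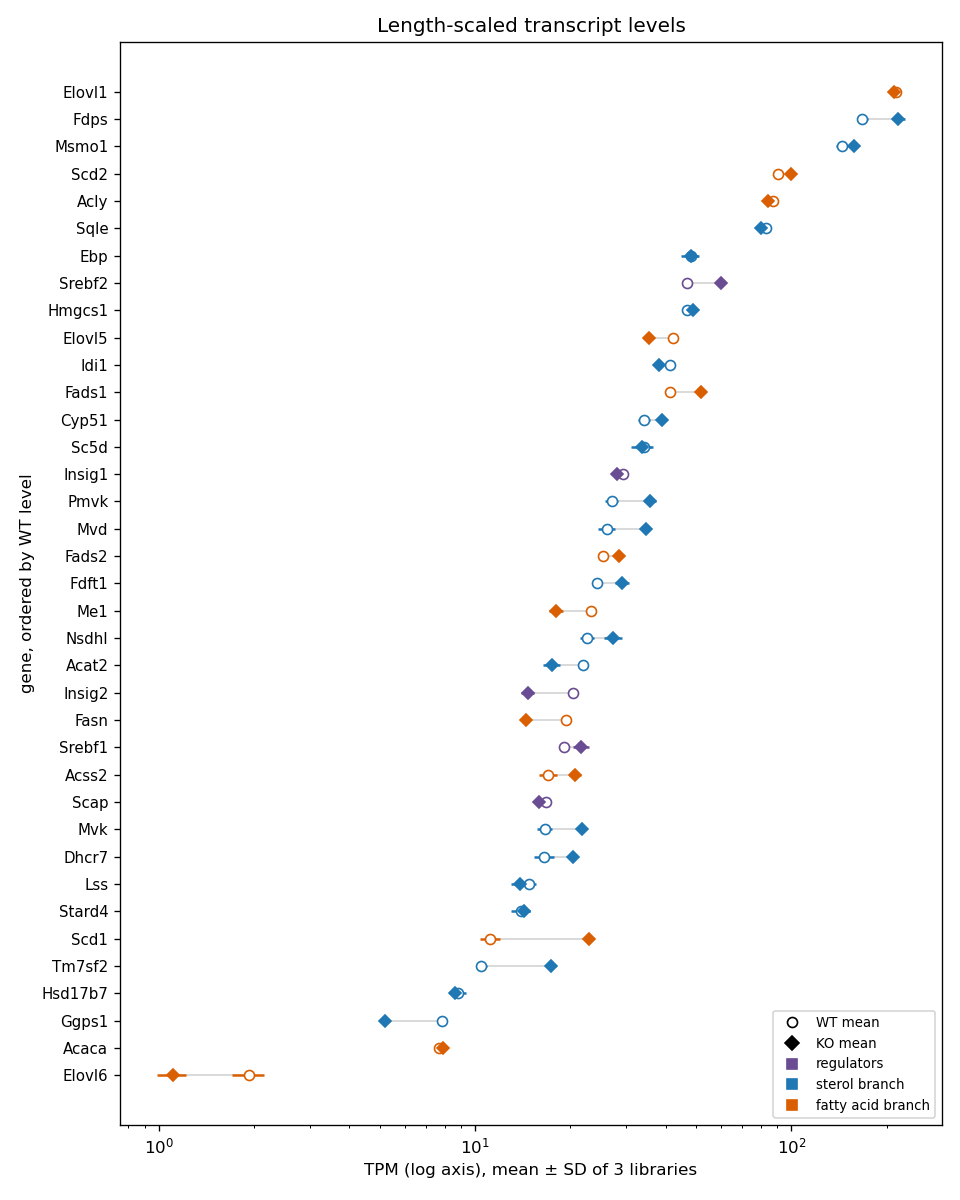
TPM of each gene (log axis, mean ± SD of 3 libraries; open circles, WT; filled diamonds, KO), ordered by the WT level. Elovl1 was the highest in WT at 215 TPM and Elovl6 the lowest at 1.92 TPM, and the grey lines join the WT and KO means.

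Compared per length, the branches were expressed at similar levels in WT, with a median of 25.2 TPM over the sterol genes and 24.3 TPM over the fatty acid genes. The most abundant members were Elovl1 at 215 ± 6.13 TPM, Fdps at 168 ± 7.11 TPM and Msmo1 at 145 ± 6.01 TPM. In KO, Fdps at 218 ± 10.1 TPM and Elovl1 at 212 ± 2.18 TPM differed by less than their spread. The summed sterol genes held 811 ± 10.4 TPM in WT and 910.0 ± 25.3 TPM in KO, a ratio of 1.12, and the summed fatty acid genes held 582 ± 6.69 and 596 ± 0.626 TPM, a ratio of 1.02. On the count scale these ratios were 1.19 and 1.13. For the 37 genes the log2 ratio of mean TPM was lower than the count-based log2 fold change by 0.118 to 0.221, a nearly constant shift, and 10 of the 37 had opposite signs on the 2 scales, all with count-based changes between 0.02 and 0.16.

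**Figure D4:**
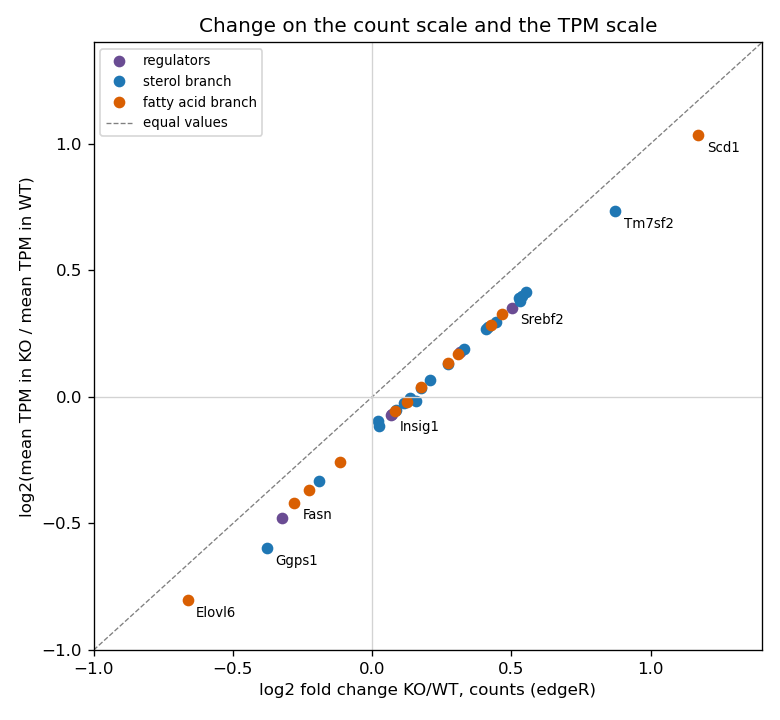
Log2 ratio of mean TPM (KO to WT, vertical) against the log2 fold change from counts (horizontal) for the 37 genes, with the dashed line of equal values. All points lie below the line, and the 10 genes whose sign differs lie just right of 0 on the horizontal axis.

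Location on the chromosome of the deleted gene was also recorded. Of the 37 genes 5 lie on chromosome 19 with Men1 (chr19:6334979-6340894), and all 5 rose. Tm7sf2 (chr19:6062821-6067850) is 267 kb from Men1, Fads2 (chr19:10062765-10101503) and Fads1 (chr19:10182877-10196874) are 3.72 and 3.84 Mb away, and Scd2 (chr19:44293676-44306864) and Scd1 (chr19:44394450-44407709) are 37.95 and 38.1 Mb away. Of the 73 tested genes within 1 Mb of Men1, 45 were higher (61.6%) and 6 lower (8.22%), with a median log2 fold change of 0.19. Within 5 Mb, 96 of 188 were higher (51.1%) and 31 lower (16.5%), against 34.4% and 34.9% over all tested genes. Over the whole chromosome, leaving out Men1, 39.3% of 425 tested genes were higher and 30.6% lower, with a median log2 fold change of 0.05. The part of position in the values of Tm7sf2, Fads1 and Fads2 was not tested.

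Other genes of the pathway were read against the shares of all tested genes, 34.4% higher and 34.9% lower. Of 16 tested genes of SREBP processing and turnover, 5 rose and 6 fell, shares near those of all tested genes, with a median log2 fold change of -0.01. The protease gene Mbtps1, which makes the first cut in SREBPs, rose by 0.23 on the log2 scale (adjusted p = 1.41e-07), and the X-linked Mbtps2, which makes the following cut, fell by 0.23 (adjusted p = 3.07e-05). Fbxw7, the ubiquitin ligase subunit that marks nuclear SREBPs for degradation, fell by 0.65 from 19.6 ± 0.329 to 12.5 ± 0.932 CPM. Rnf145, a ubiquitin ligase that acts on SCAP, rose by 0.39 from 29.3 ± 0.722 to 38.3 ± 1.53 CPM, and Erlin1, which restrains SREBP release, rose by 0.15, with 0.01 on log2(TPM + 1). Pgrmc1, a heme-binding membrane protein gene on the X chromosome, fell by 0.48.

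Of 20 tested other sterol pathway genes and sterol-responsive genes, 9 rose and 8 fell, against 34.4% and 34.9% of all tested genes, with a median log2 fold change of 0.0028. Cyp27a1, which makes an oxysterol from cholesterol, rose from 3.09 ± 0.585 to 9.84 ± 0.786 CPM (log2 fold change 1.67, adjusted p = 7.33e-15), while Ch25h, the hydroxylase of another oxysterol, was low in both groups and fell from 1.68 ± 0.405 to 0.544 ± 0.230 CPM. Cyb5r3, a cytochrome b5 reductase, rose by 0.36. Nus1 and Pdss1, which serve the non-sterol products dolichol and ubiquinone, fell by 0.59 and 0.48 on the log2 scale, from 176 ± 3.91 to 116 ± 2.60 CPM and from 9.73 ± 0.453 to 6.98 ± 0.780 CPM. Dhdds, the partner of Nus1 in dolichol synthesis, differed from it in direction and rose by 0.23 (adjusted p = 6.34e-06); it is named after its values were seen.

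Of 20 tested other fatty acid synthesis genes, 11 rose and 4 fell, against 34.4% and 34.9% of all tested genes (median log2 fold change 0.14). Slc25a1, the carrier that exports citrate for fatty acid synthesis, rose by 0.50 from 66.3 ± 2.17 to 93.8 ± 2.34 CPM, and Tecr, the reductase of the elongation cycle, rose by 0.42 from 117 ± 3.81 to 157 ± 4.79 CPM. Fads6 rose by 0.50 on counts (adjusted p = 0.00284) and had a log2 difference of 0.05 on log2(TPM + 1), with a limma adjusted p of 0.621. Elovl7 and Fads3 fell by 1.28 and 1.23 on the log2 scale, from 4.08 ± 0.177 to 1.68 ± 0.347 CPM and from 7.74 ± 0.700 to 3.29 ± 0.415 CPM, and Hacd1 fell by 0.40.

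Of 23 tested upstream regulators 11 rose and 7 fell, against 34.4% and 34.9% of all tested genes (median log2 fold change 0.04). Nr1h3, which encodes the liver X receptor LXRα, an activator of Srebf1 and Scd1 in macrophages, rose from 19.9 ± 0.803 to 36.6 ± 1.52 CPM (log2 fold change 0.87, adjusted p = 5.67e-17). Its partner gene Rxra rose by 0.42, from 75.7 ± 0.862 to 101 ± 0.954 CPM, and Usf1, a factor that binds E-boxes in lipid synthesis promoters, rose by 0.44. Pparg, a lipid-sensing nuclear receptor of alveolar macrophages, fell by 0.54 from 18.96 ± 0.534 to 13.1 ± 1.08 CPM, and Sirt1, a deacetylase gene, fell by 0.37. Prkaa2, a catalytic subunit of AMP-activated kinase, was at 3.25 ± 0.550 and 2.48 ± 0.567 CPM, and its adjusted p of 0.0403 rose to 0.255 without WT replicate 1, 0.0705 without KO replicate 1 and 0.275 without KO replicate 3.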

How the data were processed

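Alveolar macrophage RNA was sequenced after polyA selection in 3 WT and 3 KO libraries, per the labels' protocols. Per the submitters' processing notes, HISAT, Bowtie2 and build GRCm38.p6 were used, in roles not stated; neither the counter nor its use of strand is given in the sources used here. The deposited expected counts are estimated reads per gene, not whole for 8.66% to 9.19% of genes, and were rounded. The FPKM and TPM values are the authors' own, as the file headers name them. The authors' normalised counts, group means and heat map values were not used.

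KO was compared with WT by edgeR 4.0.16 (quasi-likelihood, TMM, filterByExpr, group only, Benjamini-Hochberg, threshold 0.05) in R 4.3.3. The filter kept 11817 of 15824 genes and all 37 members. SE is the log2 fold change over the root of F, and CPM uses TMM-scaled totals, where 3 counts are 0.146 to 0.153 CPM. Libraries of a group differed beyond counting noise (chi-square per degree of freedom 1.37 to 1.59). Members, lists and tests were chosen with earlier results of these data known. All members are named, with up to 3 genes per direction of each related list; some genes are not reported here. Gene positions and promoters come from RefSeq on GRCm38.p6. Of the 40 member promoter entries, all checked, 35 continued into a transcript of the gene and the rest did not match one. Counts were also fitted with DESeq2 1.42.0 and limma-voom, and limma 3.58.1 was run on log2(FPKM + 1), log2(FPKM + 0.1) and log2(TPM + 1). Other alternatives changed the scaling, filter, threshold, assumed spread and libraries. Figures used matplotlib 3.10.9.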

Additional observations from a re-analysis of the deposited data

How the results depend on the processing

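Counts of genes and members called stayed within 1.5 times the main value, and the medians moved by less than the spread between libraries, in the 21 alternatives except as follows. On log2(TPM + 1) limma called 2366 genes higher and 5709 lower and 5 fatty acid members higher, with medians of 0.0974 (sterol) and 0.00685 (fatty acid). The fatty acid median was 0.0936 without scaling beyond library totals, 0.0813 on log2(FPKM + 1) and 0.0893 on log2(FPKM + 0.1). On log2(TPM + 1) the sign reversed for Idi1 (-0.11), Sqle (-0.053), Ebp (-0.0072), Sc5d (-0.016), Acly (-0.057) and Elovl1 (-0.019), each of which passed on 1 of the scales, and also for Scap (-0.066), Insig1 (-0.067), Lss (-0.090) and Hsd17b7 (-0.021), which passed on neither scale; the median of all tested genes was -0.12. When the biological coefficient of variation was set to 0.1, 2180 genes were higher and 2226 lower, 9 sterol members higher and 1 lower, and 4 fatty acid members higher and 1 lower, since the assumed spread is wider; 18 genes that the naming rule picks then lost their call. Requiring at least 1.5-fold left 993 genes higher and 1110 lower, 1 sterol member higher and 0 lower, 1 fatty acid member higher and 1 lower, and 0 regulators higher and 0 lower, by construction. Leaving out each library in turn gave 14 to 16 sterol members higher, 2 lower, 8 fatty acid members higher and 3 to 4 lower. Same-numbered WT and KO libraries showed no sign of deviating together (correlations -0.02, 0.03 and 0.02). Such correlations cannot show whether the libraries were paired by animal or day. The fit with the replicate block called 4121 genes higher and 4200 lower, 16 sterol members higher and 2 lower. Without X and Y genes, which removes Nsdhl and Ebp, 13 sterol members were higher. The cause was not tested where none is given. Counting error limits the least abundant member, Elovl6, with 83 to 174 counts per library.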
